A study of Rattus norvegicus with 60 samples.

Results

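The mRNA of the frontal cortex was compared between rats given deltamethrin at 3 mg/kg and rats given deltamethrin at 0.3 mg/kg, over all 31042 probe sets of an Affymetrix rat genome array. These 2 groups of 8 rats, 16 of the 60 rats of the study, were chosen by their dose labels, and the contrast between them holds no vehicle rat, unlike a contrast of either dose against vehicle. All rats were adult Long-Evans males of postnatal day 62 to 64, and each received 1 gavage of test compound in corn oil at 1 mL/kg and was sampled 6 h later. The other groups were 12 rats given corn oil alone, 8 rats at 1 mg/kg deltamethrin, and 8 rats at each of 1, 10 and 100 mg/kg permethrin. Each rat gave 1 array. The question was how the response of the cortex to the highest dose differs from that to the lowest dose of the same compound.

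Deltamethrin is a type II pyrethroid insecticide, which carries an alpha-cyano group. Pyrethroids hold voltage-gated sodium channels open for longer after they activate, so that neurons fire repetitively, and type II compounds also act on other channels. Strong neuronal firing is known to switch on immediate early genes such as Fos and Egr1, and a systemic stressor raises circulating corticosteroids, which bind the glucocorticoid receptor and raise transcription of genes such as Fkbp5, Tsc22d3 and Sgk1 in brain.

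The values were log2 RMA expression summaries, between 3.75 and 14.1 over all arrays, and 1 unit is a 2-fold difference. The first principal component of the 60 arrays held 58.0% of the variance and the second 10.8%. By these 2 components the arrays fell into 2 groups of 24 and 36 that the labels do not name. In the 16 rats the array groups overlapped on the first component and did not overlap on the second. In each deltamethrin group the rats numbered 1 to 3 fell in array group 1 and those numbered 4 to 8 in array group 2, so that dose and array group were balanced. Excitatory neuron markers such as Slc17a7 (mean 12.5 over the 16 rats) and Camk2a (mean 11.9) were bright. Markers of blood leukocytes such as S100a8 (4.21 to 4.99) and Ptprc (4.68 to 5.09) lay near the bottom of the range of the table, while S100a9 (4.74 to 6.29) and Cd3e (6.69 to 7.29) reached higher, and the table gives no detection call. One rat stood apart before any comparison: rat 2 at 0.3 mg/kg had a mean of 8.27 over 10 striatal neuron markers, while the other 15 rats had 9.04 to 9.74. That rat was also the lowest of its group for the means of the microglia, meninges, astrocyte and oligodendrocyte markers. The same held for the endothelial, choroid plexus, blood, oligodendrocyte precursor and olfactory bulb lists. For the excitatory neuron markers it was the highest of its group, at 10.13. In whole tissue, fewer cells of a type and less RNA per cell cannot be told apart.

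No probe set passed an adjusted p of 0.05 in the contrast of 3 against 0.3 mg/kg by limma with Benjamini-Hochberg adjustment (0% of 31042). At an unadjusted p under 0.05 there were 190 probe sets higher at 3 mg/kg (0.612%) and 135 lower (0.435%), 325 in all, while uniform p-values would give 1552. The larger share was not higher in every setting: within array group 1 there were 265 higher and 437 lower, and with the striatal marker mean as a covariate 96 and 138. At an unadjusted p under 0.01 there were 49, and under 0.001 there were 6. The median difference over all probe sets was 0.00 on the log2 scale, with 5% of them below -0.12 and 5% above 0.12. Differences over 0.5 in either direction were found for 13 probe sets, 10 higher and 3 lower, and 1 probe set differed by more than 1. The median SD between rats was 0.15 at 0.3 mg/kg and 0.16 at 3 mg/kg.

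Gpd1, the cytosolic glycerol-3-phosphate dehydrogenase that links glycolysis to glycerolipid synthesis, gave the lowest p and the largest difference. In the 8 rats at 0.3 mg/kg it ranged from 8.21 to 9.26 with a median of 8.87, and in the 8 rats at 3 mg/kg from 9.21 to 10.62 with a median of 9.92. Rat 5 at 3 mg/kg, at 9.21, was the 1 rat that lay within the range of the lower dose, and the other 7 lay above all 8 rats at 0.3 mg/kg. The difference was 1.13 ± 0.17 on the log2 scale (SE, 8 against 8 rats, 95% interval 0.77 to 1.48), a level 2.18-fold higher at 3 mg/kg, with an adjusted p of 0.124 by limma. It was 1.17 within array group 1 and 1.10 within array group 2, and with each rat left out in turn it lay between 1.03 and 1.23. Its adjusted p was 0.0128 without rat 5 at 3 mg/kg, 0.0178 with array weights and 0.0448 with the dimmer probe sets left out, but 0.558 with the replicate block, 1.00 with the striatal marker mean as a covariate and up to 0.441 with another rat left out. The second probe set of Gpd1 differed by 0.77 ± 0.14 (adjusted p = 0.470 by limma), and was called without rat 5 as well (0.86 ± 0.12, adjusted p = 0.0345). The mean of the vehicle rats was 8.95, and the means at 0.3, 1 and 3 mg/kg were 8.81, 9.45 and 9.94.

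**Figure D1:**
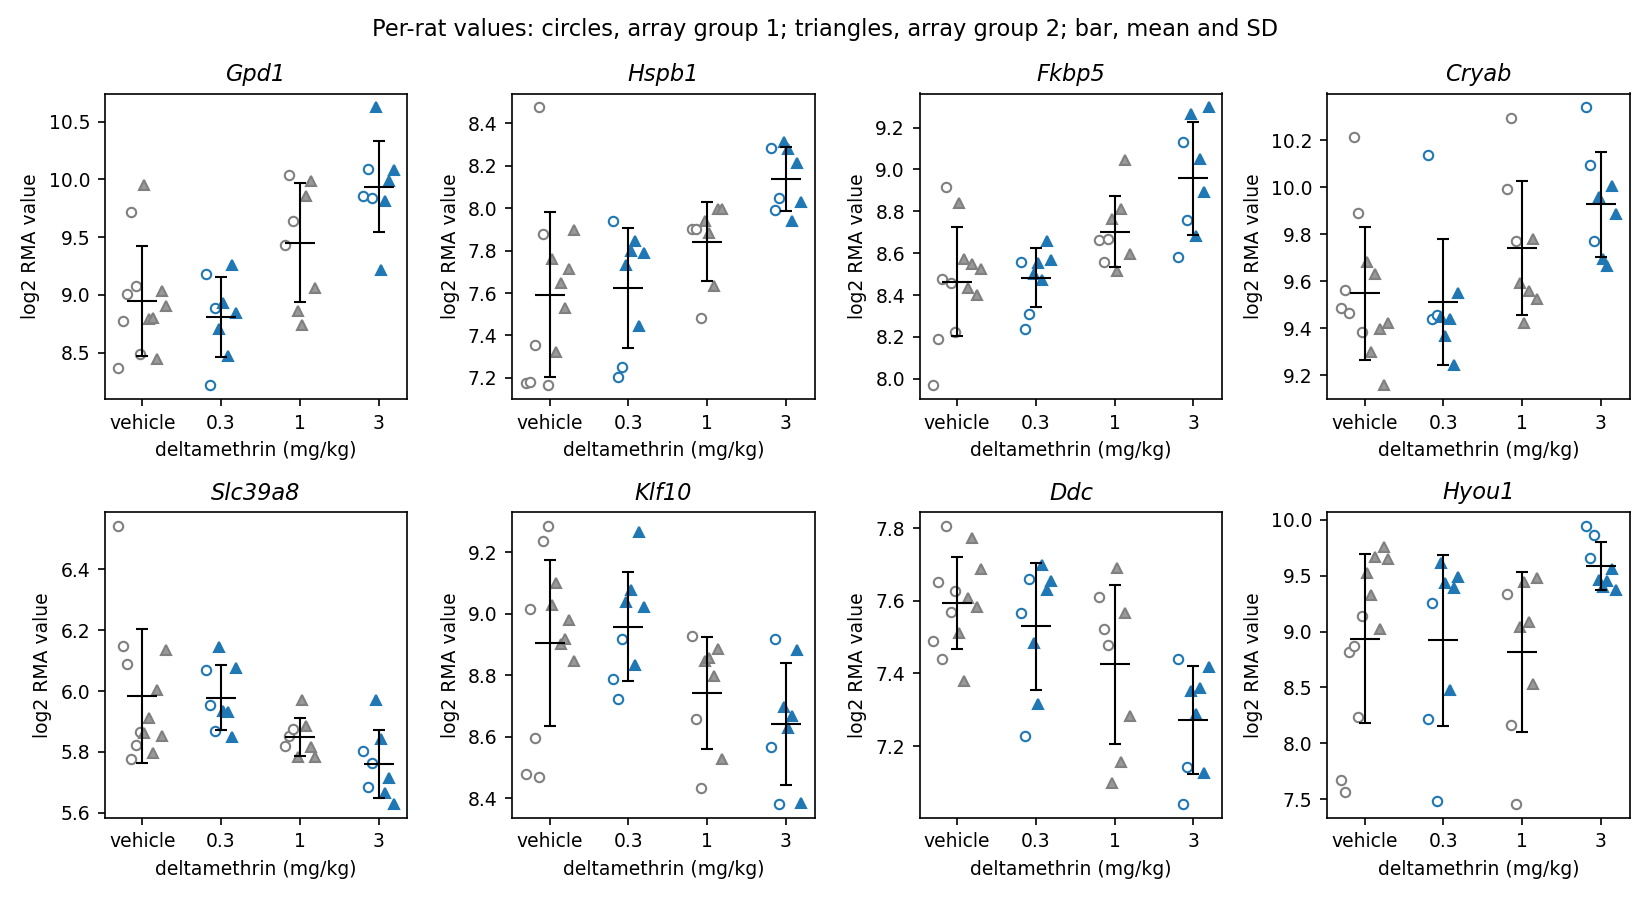
Log2 RMA values (vertical axis) of 8 genes in each rat given vehicle or 0.3, 1 or 3 mg/kg deltamethrin (horizontal axis). Circles are rats of array group 1 and triangles rats of array group 2, and bars are the mean and SD. For Gpd1 7 of 8 rats at 3 mg/kg lie above every rat at 0.3 mg/kg, while for Hyou1 the spread at 0.3 mg/kg comes from 3 low rats.

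The glucocorticoid-responsive genes, a list of genes known to rise when the glucocorticoid receptor is activated, held Gpd1 and Fkbp5, 2 of the 3 genes with the lowest p. Of 29 measured genes, 9 were higher at an unadjusted p under 0.05 and 0 lower, and 23 lay above 0, while over all 14217 genes 0.788% were higher, 0.401% lower and 56.1% above 0. The median of the list was 0.14, against 0.01 over all genes. None of the 29 passed the adjusted p except Gpd1 under the alternatives given above. The list was drawn up with earlier results of these data known, and Gpd1 and Fkbp5 were already known to move, so that the count is no independent evidence of a direction.

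Fkbp5, a co-chaperone that lowers the affinity of the glucocorticoid receptor for its ligand, ranged from 8.24 to 8.66 with a median of 8.53 at 0.3 mg/kg. At 3 mg/kg it ranged from 8.58 to 9.30 with a median of 8.97. Thus 7 of 8 rats at the higher dose lay above all rats at the lower dose, with an overlap at 8.58 to 8.66. The difference was 0.48 ± 0.10 (adjusted p = 1.00 by limma), 0.46 and 0.49 within the array groups, and 0.38 for the second probe set of the gene. The means were 8.46 in vehicle rats and 8.48, 8.70 and 8.96 with dose.

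Mt2A, a metallothionein that binds zinc and copper, ranged from 10.23 to 11.01 at 0.3 mg/kg (median 10.72) and from 10.55 to 11.64 at 3 mg/kg (median 11.10). The groups overlapped, with 5 of 8 rats at 3 mg/kg above the range of the lower dose, and the difference was 0.46 ± 0.14. Mt1, its neighbour in function, was 0.19 ± 0.09 higher, which did not pass an unadjusted p of 0.05. Mfsd2a, the lysophosphatidylcholine transporter of brain endothelium, ranged from 8.00 to 8.56 and from 8.30 to 8.82, a difference of 0.31 ± 0.09. Sult1a1, a phenol sulfotransferase, differed by 0.46 ± 0.17, and 2 of 8 rats at 3 mg/kg exceeded all rats at 0.3 mg/kg, the highest at 9.80. Of the other members past that threshold, Tgm2, a transglutaminase, was 0.40 ± 0.16 higher and Gjb6, the astrocyte gap junction protein connexin 30, 0.33 ± 0.14. Htra1, a secreted serine protease, was 0.21 ± 0.09 higher and Plin4, a lipid droplet coat protein, 0.15 ± 0.07.

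The members most often used to read glucocorticoid action did not all share this difference. Tsc22d3 differed by 0.17 ± 0.09, Klf9 by 0.06 ± 0.10 and Sgk1 by 0.03 ± 0.10. Per1 differed by -0.02 ± 0.10, and Dusp1, a phosphatase of MAP kinases, by -0.23 ± 0.13, the lowest value of the list. None of these reached an unadjusted p of 0.05. By rat, the mean of the 29 genes ranged from 8.35 to 8.62 (median 8.54) at 0.3 mg/kg and from 8.55 to 8.89 (median 8.66) at 3 mg/kg, so that the groups overlapped. The mean was 8.58 in vehicle rats and 8.67 at 1 mg/kg. The median difference of the list was 0.17 in array group 1 and 0.12 in array group 2. Without rat 2 at 0.3 mg/kg it was 0.12 with 7 genes higher, and with the mean of the striatal markers as a covariate it was 0.10 with 5 genes higher.

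**Figure D2:**
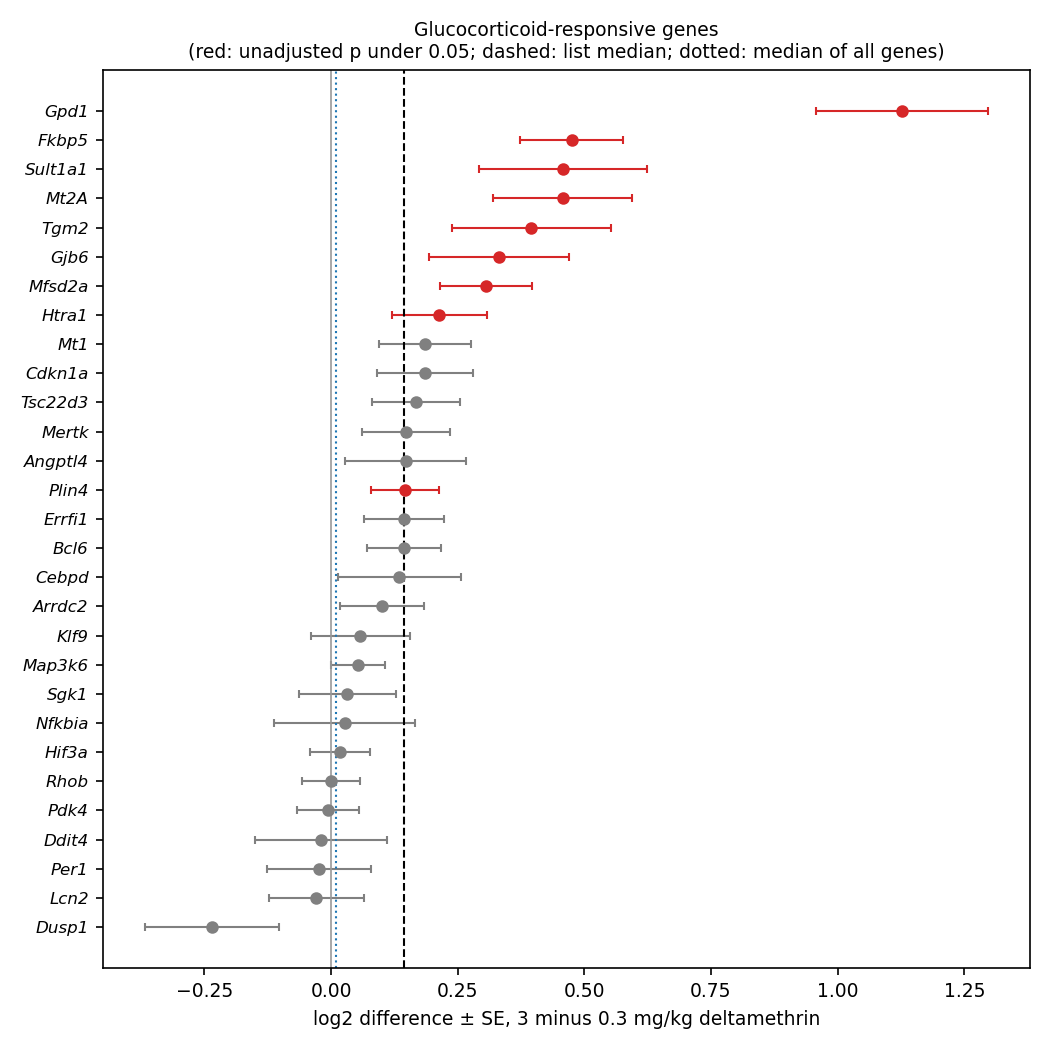
Log2 difference ± SE (horizontal axis) of each of 29 glucocorticoid-responsive genes (vertical axis) between 8 rats at 3 mg/kg and 8 at 0.3 mg/kg deltamethrin. Red marks the 9 genes at an unadjusted p under 0.05, all to the right of 0, the dashed line is the median of the list (0.14) and the dotted line that of all genes (0.01).

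Hspb1 and Cryab code for small heat shock proteins, which bind unfolding proteins without using ATP. Hspb1 was the 1 probe set of 31042 whose groups did not overlap with the higher dose above (0.00322%), and 0 probe sets did so in the other direction (0%). It ranged from 7.21 to 7.94 at 0.3 mg/kg (median 7.76) and from 7.94 to 8.31 at 3 mg/kg (median 8.13), and the gap between the groups was below the second decimal. The difference was 0.51 ± 0.11 (adjusted p = 1.00 by limma), and it was 0.64 within array group 1, 0.43 within array group 2 and 0.45 without rat 2 at 0.3 mg/kg. By qRT-PCR in other rats, the paper reports no effect of the compounds on this gene, which it calls Hsp27, without showing the values. Cryab, the alpha-B crystallin of astrocytes and oligodendrocytes, ranged from 9.24 to 10.14 (median 9.44) and from 9.66 to 10.34 (median 9.92). Its groups overlapped through rat 1 at 0.3 mg/kg, the highest of its group at 10.14, and the difference was 0.42 ± 0.12. Hspb1 and Cryab were 2 of 25 heat shock and chaperone genes at an unadjusted p under 0.05, and 0 were lower, while 0.788% of all genes were higher and 0.401% lower. The study had already named both genes for deltamethrin on these same rats, so that this count is no independent evidence.

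Of the 25 genes, 5 lay above 0.12, the value that 5% of all probe sets exceed, and 0 below -0.12. Apart from Hspb1 and Cryab, Bag3, a co-chaperone of Hsp70, was differed by 0.24 ± 0.12, Hspb8, a further small heat shock protein, by 0.19 ± 0.12 and the transcription factor Hsf1 by 0.15 ± 0.10. Other members lay closer to 0, such as the small heat shock genes Hspb6 (0.08 ± 0.10), Hspb2 (0.04 ± 0.05) and Hspb3 (-0.02 ± 0.06) and the inducible Hsp70 gene Hspa1a (0.08 ± 0.07). The median of all 25 genes was 0.04.

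The start of Hspb1 and that of Mt2A are shown because these genes are the members of the chaperone list and of the metallothionein pair with the lowest p, and each has a well-known class of response element. The RefSeq promoter table (assembly GRCr8) held a window of 300 bases around the start of the gene for 24 of the 32 genes named by p, size or the qRT-PCR list. Capitals mark matches, on either strand, to an inverted heat shock pair, GAA and TTC in either order with 2 bases between them, in Hspb1 and to the metal element core TGCACNC or TGCGCNC in Mt2A. The windows lie at chr12:26432252-26432551 on the minus strand and chr19:10838659-10838958 on the minus strand, and are written 5′ to 3′.
Hspb1: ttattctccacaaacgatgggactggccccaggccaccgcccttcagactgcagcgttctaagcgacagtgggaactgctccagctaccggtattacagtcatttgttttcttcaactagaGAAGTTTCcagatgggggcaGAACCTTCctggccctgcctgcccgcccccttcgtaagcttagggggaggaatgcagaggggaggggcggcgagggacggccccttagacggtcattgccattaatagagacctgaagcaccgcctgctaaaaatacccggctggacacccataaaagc
Mt2A: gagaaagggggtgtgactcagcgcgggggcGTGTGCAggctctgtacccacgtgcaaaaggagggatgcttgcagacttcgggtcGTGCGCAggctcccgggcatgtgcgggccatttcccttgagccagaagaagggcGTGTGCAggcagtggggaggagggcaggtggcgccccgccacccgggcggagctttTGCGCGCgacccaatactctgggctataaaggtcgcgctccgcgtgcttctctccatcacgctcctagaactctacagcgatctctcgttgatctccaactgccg

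The Hspb1 window held 2 matches, at -129 to -122 and -109 to -102 from the first base of the gene, which counts as 0. The Mt2A window held 4, between -220 and -49. Of 33469 promoter windows in the table, 15.9% held the heat shock pair and 24.2% the metal element, so that a match by itself is common. A glucocorticoid element, GNACA and TGTNC with 3 bases between them, was found in 0.439% of windows and in none of the windows of the named genes, which says only that these letters are not in those windows. At that share, none among so few windows lies at the background. The promoter table held no window for Gpd1 or Cryab, so that the starts of these genes were not searched. Whether any match is bound was not measured.

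Among the other genes with the lowest p higher at 3 mg/kg, Gpatch4, which codes for a G-patch domain protein of the nucleolus, ranged from 7.08 to 7.38 at 0.3 mg/kg and from 7.18 to 8.31 at 3 mg/kg. Its groups overlapped, with 6 of 8 rats at 3 mg/kg above the lower dose, and all 4 probe sets of the gene were higher, by 0.23 to 0.48. Heg1, a membrane protein of endothelial junctions, ranged from 9.12 to 9.56 and from 9.41 to 9.87, a difference of 0.31 ± 0.08. Lrg1, a secreted leucine-rich glycoprotein, ranged from 6.85 to 7.36 and from 7.23 to 7.84, a difference of 0.33 ± 0.09, and 6 of 8 rats at 3 mg/kg exceeded the range of the lower dose. Igf1r, the insulin-like growth factor receptor, was 0.20 ± 0.06 higher with 4 of 8 rats above that range. Ret, the receptor tyrosine kinase of the GDNF ligands, was 0.28 ± 0.08 higher by 1 probe set, while its brightest probe set differed by 0.07 ± 0.08. Camk1g, a calcium/calmodulin-dependent kinase, ranged from 9.19 to 9.47 and from 9.30 to 9.73, a difference of 0.24 ± 0.07 with 5 of 8 rats above the range at 0.3 mg/kg.

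The 10 genes with the lowest p lower at 3 mg/kg differed by -0.22 to -0.35, and their groups all overlapped. Slc39a8, an importer of zinc and manganese, ranged from 5.85 to 6.14 at 0.3 mg/kg (median 5.94) and from 5.63 to 5.97 at 3 mg/kg (median 5.74). The difference was -0.22 ± 0.06 (adjusted p = 1.00 by limma), and 7 of 8 rats at 3 mg/kg lay below every rat at 0.3 mg/kg. Klf10, a zinc finger transcription factor induced early by TGF-beta, ranged from 8.72 to 9.27 (median 8.97) and from 8.38 to 8.92 (median 8.65). Its difference was -0.32 ± 0.09, with 6 of 8 rats below the range of the lower dose.

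Ddc, the aromatic amino acid decarboxylase that makes dopamine and serotonin, ranged from 7.23 to 7.70 and from 7.04 to 7.44, a difference of -0.26 ± 0.08, while its second probe set differed by -0.05 ± 0.13. Opalin, a membrane protein of myelinating oligodendrocytes, differed by -0.34 ± 0.12, and 6 of 8 rats at 3 mg/kg lay below the mean at 0.3 mg/kg. For Vldlr, a receptor of reelin, the probe set with the lowest p differed by -0.30 ± 0.10 and the brightest by -0.16 ± 0.12. Slit2, an axon guidance ligand, differed by -0.35 ± 0.12 by one probe set and by -0.10 ± 0.05 by its brightest. Likewise, Mdp1, a magnesium-dependent phosphatase, differed by -0.24 ± 0.07 and by -0.01 ± 0.15 for its brighter probe set. Hint3, a histidine triad protein, was lower by -0.24 ± 0.08, Rbm11, an RNA-binding protein, by -0.23 ± 0.07, and Sertm1 by -0.30 ± 0.10.

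**Figure D3:**
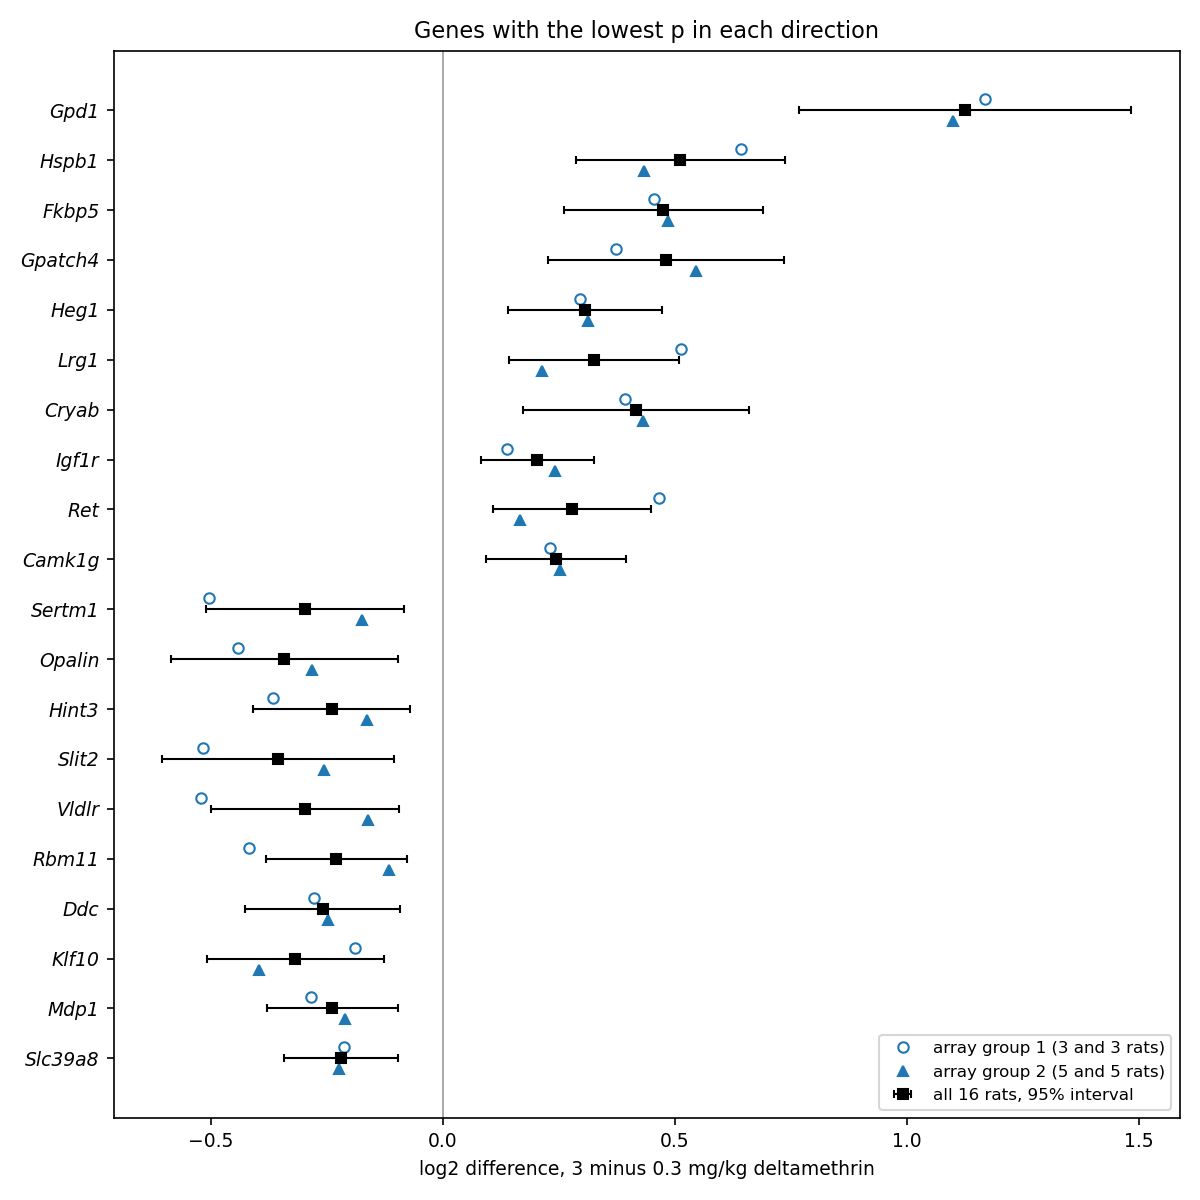
Log2 difference between 3 and 0.3 mg/kg deltamethrin (horizontal axis) for the 10 genes with the lowest p in each direction (vertical axis). Squares are the fit of 16 rats with 95% intervals, open circles array group 1 (3 and 3 rats) and triangles array group 2 (5 and 5 rats). Gpd1 lies farthest from 0, at 1.13, and both array groups lie on the same side of 0 for every gene.

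All 20 of these genes had the same sign in both array groups, and for all 20 the mean at 1 mg/kg lay between the means at 0.3 and 3 mg/kg. Since these genes were picked for their p over the same rats, and so for a wide gap between the means at 0.3 and 3 mg/kg, neither count is independent support. The vehicle mean lay between the 2 doses for 4 of the 10 higher genes and for 8 of the 10 lower genes. For Gpd1, for example, the vehicle mean of 8.95 lay above the mean at 0.3 mg/kg, and for Hspb1 the vehicle mean of 7.59 lay below it, at 7.62.

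Several of the largest differences came from a few rats. Avp, the vasopressin precursor, ranged from 7.33 to 7.93 at 0.3 mg/kg and from 7.50 to 9.39 at 3 mg/kg, with 3 rats, numbered 4, 6 and 8, at 9.03 or above. Its difference was 0.73 ± 0.26 on the log2 scale. Oxt, the oxytocin precursor, was highest in the same 3 rats, at 9.91 to 10.36, and differed by 0.61 ± 0.37. Both are made mainly in the hypothalamus, which is outside the labelled tissue.

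Hyou1, a chaperone of the endoplasmic reticulum, had 3 low rats at 0.3 mg/kg, at 7.49, 8.22 and 8.48, while the other 5 ranged from 9.26 to 9.61 and all 8 at 3 mg/kg from 9.37 to 9.95. The difference was 0.67 ± 0.26, with 1.5 in array group 1 and 0.17 in array group 2 (interaction adjusted p = 0.997 by limma). Of 27 endoplasmic reticulum stress genes Hyou1 was the 1 at an unadjusted p under 0.05, and the median of the list was 0.04. The shares over all genes were 0.788% higher and 0.401% lower. The largest lower values were Rnf6 at -0.56 ± 0.29, Dnajb6 at -0.45 ± 0.32, Kcnc2 at -0.43 ± 0.25, Hecw2 at -0.42 ± 0.16 and Oip5-as1 at -0.39 ± 0.34. Of these 5, Hecw2, a ubiquitin ligase, was the 1 with an unadjusted p under 0.05 by limma. The brightest probe set of Kcnc2 differed by -0.14 ± 0.15 and that of Oip5-as1 by -0.06 ± 0.25.

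Genes of neuronal activity differed in both directions. Bdnf, the neurotrophin, ranged from 6.37 to 7.45 at 0.3 mg/kg and from 6.49 to 7.19 at 3 mg/kg, a difference of 0.01 ± 0.13. Its second probe set differed by -0.02 ± 0.05. Fos differed by -0.03 ± 0.07 for its brighter probe set and by -0.22 ± 0.36 for the other, Egr1 by 0.11 ± 0.16 and Rassf5, a Ras effector, by 0.07 ± 0.10. Of 22 immediate early genes, Fosb was higher by 0.32 ± 0.15 and Klf10 lower, and the median was 0.00, with 3 members above 0.12 and 6 below -0.12. The members below, other than Klf10, included Nr4a1 (-0.27 ± 0.17), Arc (-0.25 ± 0.23) and Dusp1 (-0.23 ± 0.13). Of 23 late activity-regulated genes and of 14 calcium/calmodulin kinase and calmodulin genes, Camk1g was the 1 at an unadjusted p under 0.05, with medians of 0.01 and 0.02. By this measure 0.788% of all genes were higher and 0.401% lower. Of the 23 late genes 8 lay above 0.12 and 2 below -0.12, among them Penk (0.37 ± 0.18) and Tac1 (0.25 ± 0.21), which the striatal marker list also holds, and Inhba (0.24 ± 0.17). A p that misses the threshold does not show that these genes are alike at the 2 doses, and the interval of each is about 2 SE to either side.

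The medians of the ion channel and synaptic lists, which hold the molecular targets of pyrethroids, lay near 0 as well. No member reached an unadjusted p of 0.05 among 12 voltage-gated sodium channel subunits (median -0.03), 20 calcium channel subunits (0.01), 41 potassium channel genes (-0.01) and 14 chloride channel and cotransporter genes (0.01). The same held for 15 GABA receptor subunits (-0.04), 16 glutamate receptor subunits (0.00), 27 synaptic vesicle release genes (-0.02) and 38 mitochondrial genes (0.00). It also held for 18 clock genes (-0.02), 12 monocarboxylate transporters (-0.06), 15 MAP kinase feedback genes (0.03) and 19 oxidative stress genes (0.03). With 0.788% of all genes higher and 0.401% lower by this measure, a count of 0 in lists of these sizes lies at the background and says nothing particular to them.

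The remaining lists are described by their members at an unadjusted p under 0.05, where over all genes 0.788% were higher and 0.401% lower. The 31 branching morphogenesis genes (median 0.02) held Heg1 and Timp3, a metalloproteinase inhibitor that was 0.27 ± 0.10 higher. Among 21 metallothioneins and metal transporters (0.01) Mt2A was higher and Slc39a8 lower. Among 18 glycerol phosphate and lactate enzymes (0.03) Gpd1 was higher, as was Agpat2, an acyltransferase of a later step, by 0.11 ± 0.05. Sult1a1 was the 1 of 23 cytochrome P450, carboxylesterase and conjugation genes (0.04), Ddc the 1 of 14 monoamine genes (-0.02) and Fkbp5 the 1 of 12 corticosteroid receptor complex genes (0.01). Of 31 genes that the study named for deltamethrin, 11 were higher and 4 lower with a median of 0.13, but they were chosen on these same rats and are no independent evidence. The study also named Timp3, Slc39a8, Gpd1, Ddc and Fkbp5 for deltamethrin, so that the counts of the lists that hold them are no independent evidence either.

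**Figure D4:**
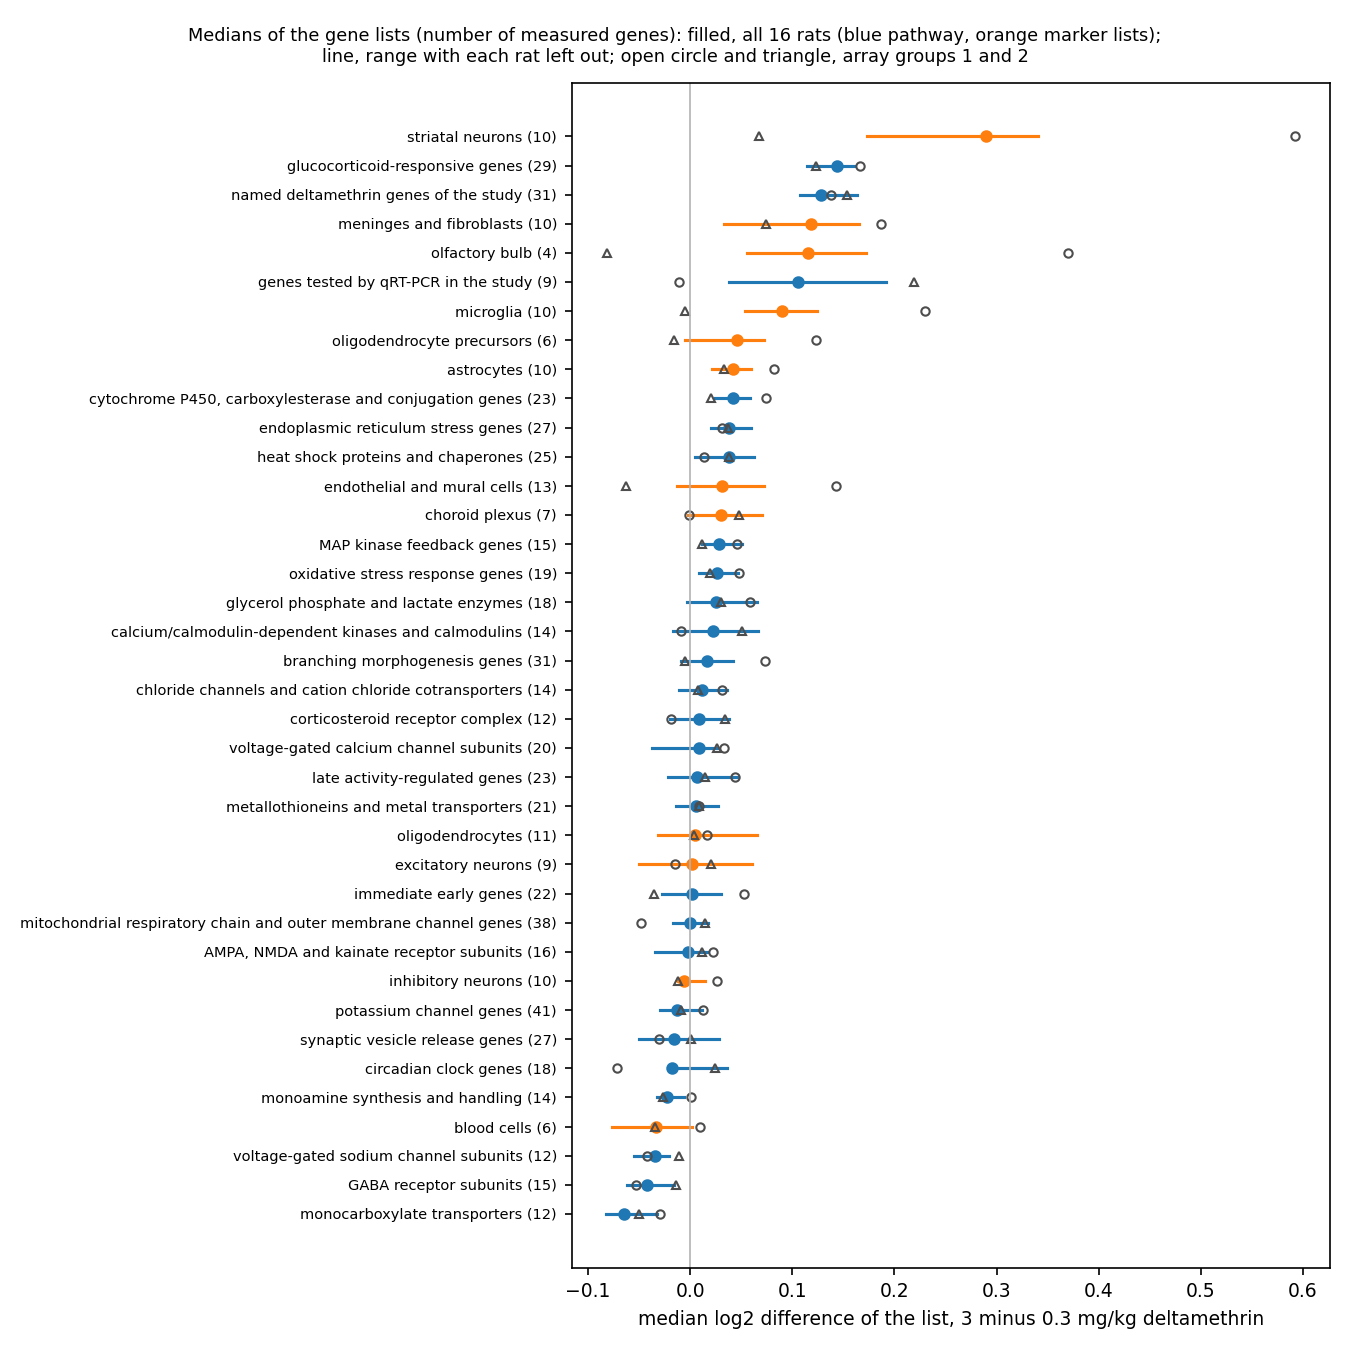
Median log2 difference between 3 and 0.3 mg/kg deltamethrin (horizontal axis) of each gene list with its number of measured genes (vertical axis). Filled points are all 16 rats (blue pathways, orange cell type markers), lines the range with each rat left out, and open circles and triangles array groups 1 and 2. Striatal neuron markers have the highest median (0.29) and differ between the array groups (0.59 and 0.07), and the glucocorticoid-responsive genes follow at 0.14.

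Markers of other cells and regions also differed in part between the dose groups. All 10 striatal neuron markers lay above 0, with a median of 0.29, and 3 were higher at an unadjusted p under 0.05: the phosphodiesterase Pde10a (0.30 ± 0.11), Ppp1r1b, or DARPP-32 (0.28 ± 0.12), and Rgs9 (0.25 ± 0.11). Over all genes 0.788% were higher, 0.401% lower and 56.1% above 0. The mean of the list ranged from 8.27 to 9.67 at 0.3 mg/kg (median 9.50) and from 9.45 to 9.74 at 3 mg/kg (median 9.64). The groups overlapped, and the low values were those of rats 2 and 3 at 0.3 mg/kg, at 8.27 and 9.04. The median difference was 0.59 in array group 1, which holds both rats, and 0.07 in array group 2, and without rat 2 it was 0.17 with 1 marker higher. The group means of the 10 markers were 7.78 or above. With the mean of these markers as a covariate, Gpd1 differed by 0.98, Fkbp5 by 0.40 and Hspb1 by 0.39.

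Of 10 microglial markers, 8 lay above 0 with a median of 0.09, and the complement genes C1qc (0.35 ± 0.12) and C1qb (0.28 ± 0.11) were higher at an unadjusted p under 0.05. The shares over all genes were 56.1% above 0 and 0.788% higher. The third complement gene, C1qa, differed by 0.26 ± 0.14, and Aif1 and Ctss by 0.00. The median was 0.23 in array group 1 and 0.00 in array group 2. The meninges list had a median of 0.12, or 0.03 without rat 2 at 0.3 mg/kg, and that of 4 olfactory bulb genes was 0.12, with 0.37 in array group 1 and -0.08 in array group 2. That of 10 astrocyte markers was 0.04, where Gjb6 was the 1 past the threshold. The medians were 0.00 for 11 oligodendrocyte, 0.00 for 9 excitatory neuron and -0.01 for 10 inhibitory neuron markers. The part of these markers in the results above was not tested.

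**Figure D5:**
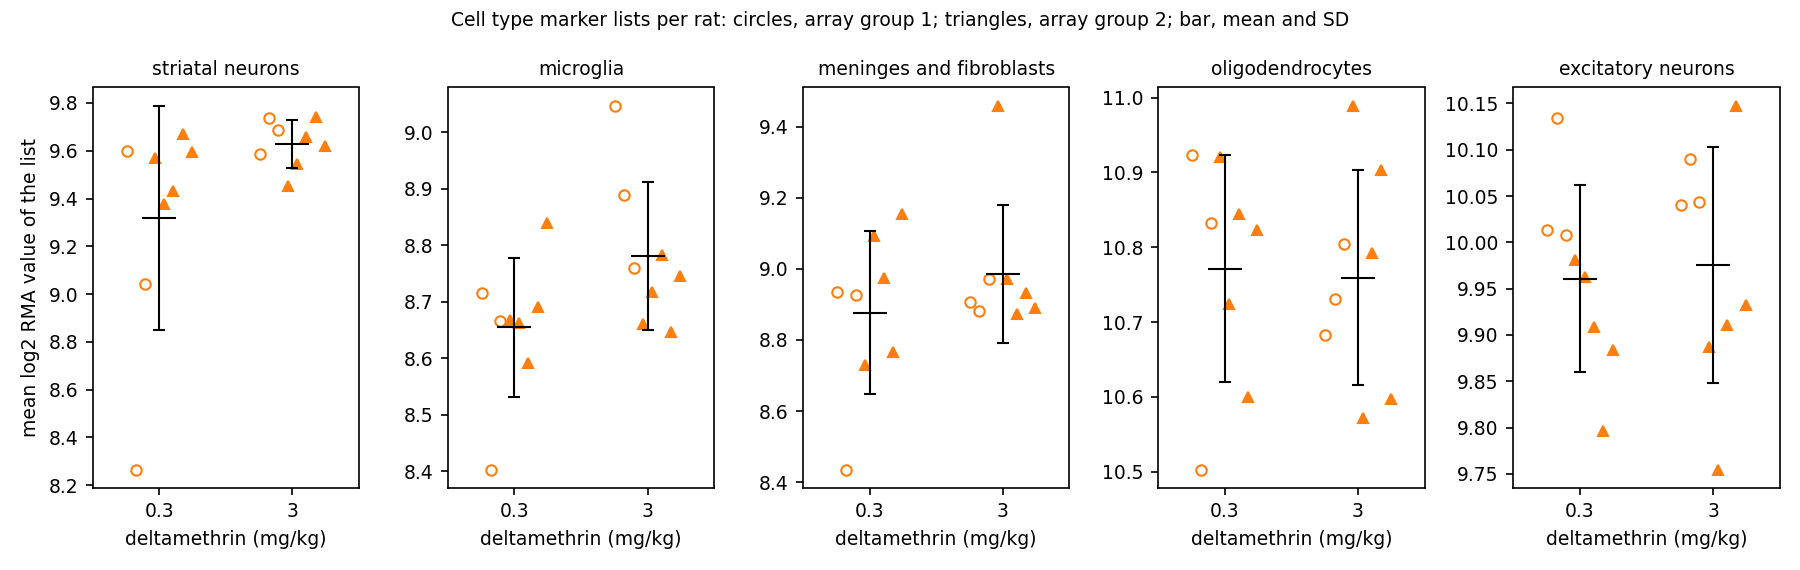
Mean log2 RMA value over the markers of 5 cell types or regions (vertical axis) in each rat, by group (horizontal axis). Rat 2 at 0.3 mg/kg lies lowest for the striatal neuron markers, at 8.27, while the excitatory neuron markers range from 9.80 to 10.13 at 0.3 mg/kg and from 9.75 to 10.15 at 3 mg/kg.

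A dose contrast of the other compound, 100 against 1 mg/kg permethrin, shares no rat with this one, and its doses and dose ratio differ, so that values are only set side by side. In the fit of all 60 arrays it had 1 probe set at an adjusted p under 0.05 by limma and 336 at an unadjusted p under 0.05, 241 higher and 95 lower. In that fit the deltamethrin contrast had 0 and 224, 125 higher and 99 lower. Of the 10 genes with the lowest p higher at 3 mg/kg deltamethrin, 8 had a difference above 0 in the permethrin contrast, and of the 10 lower genes 7 had one below 0. The share of all genes on either side of 0 in the permethrin contrast is not given here. Without that background these counts are no evidence that the compounds act alike. Gpd1 differed by 0.14 ± 0.22 in the permethrin contrast, from the fit of all 60 arrays. It differed by 1.13 ± 0.17 in the deltamethrin contrast, from the main fit, which held only the rats of the deltamethrin doses compared. These SEs come from different fits, so that their sizes cannot be compared as precision. Fkbp5 (0.22 ± 0.10) and Heg1 (0.39 ± 0.09) were the 2 of these 20 genes at an unadjusted p under 0.05 by limma for permethrin, where 336 of all 31042 probe sets were. Bdnf and Egr1 were each 0.60 ± 0.16 higher at 100 than at 1 mg/kg permethrin, against 0.01 and 0.11 for deltamethrin. For Bdnf this is the brighter probe set. The paper reports no effect on Bdnf by qRT-PCR, with values close to those of another probe set that it did not find dose-responsive. For Egr1 its qRT-PCR results were mixed. It found no main effect of dose at 6 h in 1 cohort, but a rise at 6 h after 100 mg/kg permethrin in its time course. Whether the compounds differ in these genes was not tested.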

How the data were processed

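Log2 RMA values were deposited by the authors for 1 array per rat, with background correction, quantile normalization and summary of each probe set by RMA. The deposited log2 values were used as given. The study's methods describe 2 cohorts treated on separate days and combined, and the labels do not say which rat belonged to which. Array groups were found from the principal components of the 60 arrays with mclust 6.1.1. Arrays have no read depth, and the number of rats limits the precision.

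Each probe set was fitted over the 16 rats of the 2 doses with limma 3.58.1 (R 4.3.3), two-sided, adjusting p by Benjamini-Hochberg for the 31042 tests, at an adjusted p under 0.05. The fit was tested on simulated data. The permethrin contrast came from a fit of all 60 arrays. Symbols came from the platform annotation, with 20826 probe sets having 1 symbol, 436 several and 9780 none. Of 669 list symbols, 598 matched. Named were the 10 genes with the lowest p in each direction, by their probe set with the lowest p, the 5 with the largest difference in each direction, the genes tested by qRT-PCR, and members of 38 gene lists in order of p. In lists, each gene entered by its brightest probe set. The contrast, genes and lists were chosen with earlier results of these data known. Promoters were searched with Python 3.11.15 (pandas 2.3.3, numpy 2.4.6), and figures drawn with matplotlib 3.10.9. Alternatives changed the normalization, filter, prior, weights, covariates, blocks and rats in the fit. The other measurements of the study were not analysed here.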

Additional observations from a re-analysis of the deposited data

Results flagged for a closer look

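Among 140 groups of 8 values, 64 of genes and 76 of list means, 11 had a rat set apart from the other 7 by Dixon's criterion, and chance gives about 1 in 20, or 7 here. For genes, these were Lrg1 in rat 2 at 0.3 mg/kg (6.85), Cryab in rat 1 at 0.3 mg/kg (10.14), Mdp1 in rat 1 at 3 mg/kg (6.61), Dnajb6 in rat 6 at 3 mg/kg (11.09) and Oip5-as1 in rat 1 at 0.3 mg/kg (6.97). For list means, rat 2 at 0.3 mg/kg was low for the striatal neuron markers (8.27) and for the oxidative stress genes (9.37). Rat 4 at 3 mg/kg was high for the meninges and fibroblast markers (9.46), the mitochondrial genes (11.66) and the oxidative stress genes (9.64). Rat 1 at 0.3 mg/kg was low for the voltage-gated sodium channel subunits (8.08). No cause was tested for these values. The interaction of dose with array group had 0 probe sets at an adjusted p under 0.05 by limma and 832 at an unadjusted p under 0.05.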

How the results depend on the processing

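Over 31 alternatives, 975 of 986 values of the 32 named genes kept their direction and 11 were reversed in 4 genes. Of 38 list medians, 13 kept their sign under all 25 alternatives run and 25 changed it under at least 1. The count at an adjusted p under 0.05 was 0 except for 1 with dim probe sets left out, 1 with array weights, and 0 to 2 with each rat left out, the 2 being Gpd1 probe sets without rat 5 at 3 mg/kg. The count at an unadjusted p under 0.05, 325, became 507 where array group was a block, 513 given a covariate of principal component 1, 702 within array group 1, 145 with dim probe sets left out, 610 with array weights and 217 to 722 with each rat left out (217 without rat 2 and 722 without rat 1 at 0.3 mg/kg, and 533 without rat 5 at 3 mg/kg). The causes were not tested, and some of these settings also held fewer rats or probe sets. The split turned to more lower than higher within array group 1 (265 and 437), without rat 7 at 0.3 mg/kg (225 and 228) and without rat 2 at 3 mg/kg (142 and 163), and it was 220 and 103 with arrays centred on their medians. Alternatives added after seeing the data gave 367 without the 3 arrays highest on the first component and 234 (96 higher and 138 lower) with the striatal marker mean as a covariate.

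With the replicate block the count was 872 at an unadjusted p under 0.05 and 0 called. The numbers do not pair the rats by the labels, and 6 of 8 same-numbered pairs correlated above 0.1 in their deviations, 3 of 8 best with their own number. The reversed values were those of Bdnf, at -0.089 within array group 1, -0.0014 on the linear scale, -0.0052, -0.0069 and -0.055 without rats 4, 6 and 7 at 0.3 mg/kg, -0.034 and -0.024 without rats 2 and 3 at 3 mg/kg, and -0.0046 without the arrays highest on the first component, and with each rat left out it ranged from -0.055 to 0.10. Rassf5 was -0.18 and Egr1 -0.012 within array group 1, and Fos was 0.0076 without rat 7 at 3 mg/kg, in a range from -0.061 to 0.0076 with each rat left out.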
